A study of Mus musculus with 2 samples.

Results

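Chemokine receptors are cell surface receptors of the G protein coupled family. They bind chemokines, small secreted proteins laid down by stromal, endothelial and immune cells, signal mainly through inhibitory G proteins, and steer the movement of leukocytes along chemokine gradients. In regulatory T cells (Treg cells, CD4 T cells that carry Foxp3 and hold immune responses in check) the set of receptors on a cell determines whether it circulates through lymph nodes, enters the B cell follicle, or moves to skin, gut or inflamed tissue. The genes described here are 9 chemokine receptor genes, Ccr2, Ccr4, Ccr6, Ccr7, Ccr8, Ccr9, Cxcr3, Cxcr4 and Cxcr5, taken by their GENCODE M21 symbols out of 55536 annotated genes. Each symbol matched 1 gene.

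The RNA came from Treg cells, labelled as primary cells from the whole organism, labelled male and aged 9 weeks. Poly(A)-selected RNA-seq was made as 2 technical libraries of biological replicate 1, so there is 1 group and no treatment, genotype or tissue to compare. The labels name no strain, number of mice, sorting marker or cell number. Library 1 held 34697128 and library 2 held 32049199 estimated counts over annotated genes. Levels are in TPM (a length-corrected relative abundance that sums to the same total in each library), and an SD is the spread of the 2 technical libraries, which says nothing of other mice. The RNA comes from a bulk of cells, so fewer cells of a type and less RNA per cell cannot be told apart. All 7 Treg and T cell markers checked were detected, among them Foxp3 at 109 ± 1.68 TPM (SD, n = 2). Of 6 neutrophil markers 0 were detected in both libraries, of 8 dendritic cell markers 1, of 8 monocyte and macrophage markers 4, of 5 B cell markers 4, of 6 thymocyte markers 3 and of 7 CD8 and cytotoxic markers 6. The neutrophil marker Retnlg and the natural killer marker Ncr1 had 0 reads in both libraries.

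All 9 receptor genes were detected in the bulk RNA of this Treg cell sample. The highest level was 62.6 times the lowest in library 1 and 64.6 times in library 2. Ccr7, the receptor for lymph node entry, dominated, followed at a distance by Cxcr3 and Ccr8, then by Cxcr5, Ccr6 and Ccr4, and last by Ccr9, Ccr2 and Cxcr4. At 1 TPM or more in both libraries, 9 of 9 were detected, beside 48.0% of all protein-coding genes and 23.9% of all annotated genes. Their median log2(TPM + 1) was 5.02. Over the detected protein-coding genes it was 5.003, and over all protein-coding genes 0.85, so the middle member stood at the middle of the detected protein-coding genes.

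**Figure D1:**
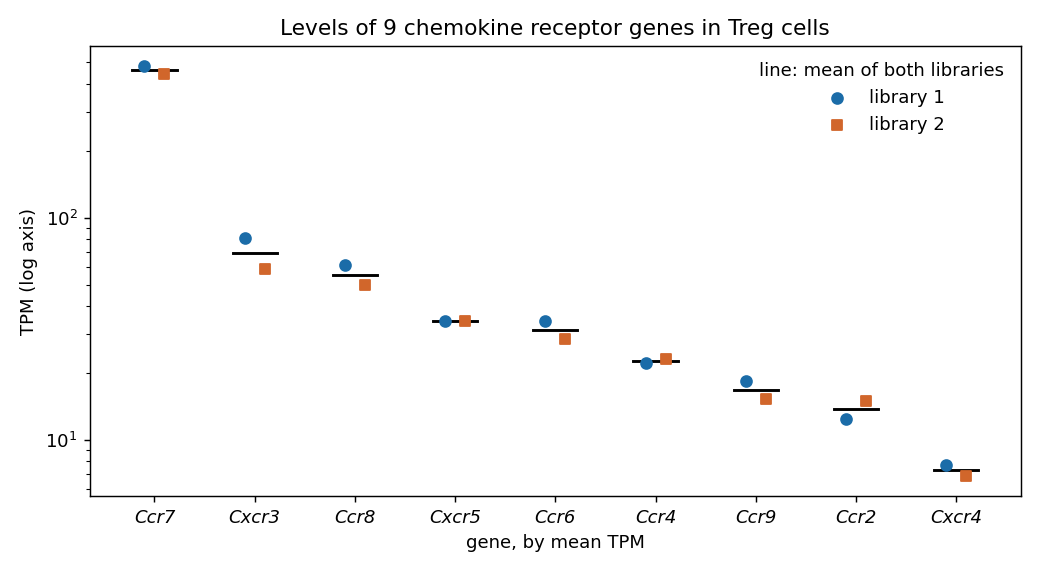
Level of each receptor gene in TPM on a log axis, with a point for each technical library and a line at their mean. Ccr7 lies at 480.1 and 444.5 TPM, apart from the other 8 genes, which run from 80.6 TPM for Cxcr3 in library 1 down to 6.88 TPM for Cxcr4 in library 2.

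Ccr7 encodes the receptor for CCL19 and CCL21, which brings naive and central memory T cells into lymph nodes and the T cell zone. The gene lies on chromosome 11 from 99144196 to 99155077 (GRCm38, minus strand). Its level was 480.1 TPM in library 1 and 444.5 TPM in the other, resting on 19576 and 17592 estimated counts. This level exceeded 97.6% of the detected protein-coding genes. Summed over the receptors, TPM reached 750.9 in library 1 and 675.9 in library 2, and Ccr7 made up 64.8 ± 1.29% of it (SD, n = 2). The next gene in the order was lower 5.96-fold in library 1 and 7.59-fold in the other. The gap was present in both libraries and much wider than their spread.

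Cxcr3 and Ccr8 came next. Cxcr3 encodes the receptor for the interferon-induced chemokines CXCL9, CXCL10 and CXCL11 and is a mark of T cells drawn to type 1 inflammation. The gene, on chromosome X from 101731535 to 101734269, reached 80.6 TPM in library 1 and 58.6 in library 2. Ccr8 encodes the receptor for CCL1 and is known from Treg cells of skin and tumours. Its gene, on chromosome 9 from 120092114 to 120094906, reached 61.0 and 49.9 TPM. Both genes were lower in library 2, and their ranges overlapped, since the lower value of Cxcr3 fell below the higher value of Ccr8. Cxcr3 was the higher within each library, 1.32-fold and 1.17-fold. Cxcr3 exceeded 74.1% and Ccr8 67.8% of the detected protein-coding genes.

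Cxcr5, Ccr6 and Ccr4 formed the middle of the order. Cxcr5 encodes the receptor for CXCL13, which guides cells into B cell follicles and marks follicular T cells. The gene spans 44511787 to 44561877 on chromosome 9 and was nearly the same in both libraries, at 34.4 and 34.2 TPM. Ccr6 encodes the receptor for CCL20, found on T cells of mucosal sites and on type 17 helper cells. It lies on chromosome 17 from 8236043 to 8257141 and stood at 34.3 and 28.4 TPM. The ranges of Cxcr5 and Ccr6 overlapped, with a ratio of 1.00 in library 1 and 1.20 in library 2, so their order is not resolved beyond the spread. Ccr4 encodes the receptor for CCL17 and CCL22, which draw T cells to skin and to dendritic cells. The gene spans 114490316 to 114504916 on chromosome 9 and stood at 22.2 and 23.2 TPM, below both other genes in each library.

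Ccr9, Ccr2 and Cxcr4 were the lowest. Ccr9 encodes the receptor for CCL25, a chemokine of the small intestine and thymus. Its gene model runs on chromosome 9 from 123678439 to 123784330, and its level was 18.3 TPM, then 15.3 TPM in library 2. Ccr2 encodes the receptor for CCL2, best known for bringing monocytes, and also effector T cells, to inflamed tissue. It lies on chromosome 9 from 124101950 to 124113557 and stood at 12.4 and 15.0 TPM. The ranges of Ccr9 and Ccr2 did not overlap, but in library 2 the genes differed only 1.02-fold. Cxcr4 encodes the receptor for CXCL12, which holds cells in bone marrow and acts in many tissues. It lies on chromosome 1 from 128588199 to 128592293 and stood at 7.67 and 6.88 TPM, on 272 and 248 estimated counts. It was the lowest in both libraries, 1.62-fold and 2.17-fold under Ccr2, and exceeded 19.0% of the detected protein-coding genes. Of the 8 neighbouring pairs in the whole order, 2 had overlapping ranges.

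Other cell types carry several of these receptors. Genes listed as markers of these cells stood at mean levels from 0 to 119 TPM, the highest being Cd1d1 of the thymocyte list. For B cells, which carry Cxcr5, Ccr6 and Ccr7, the 5 markers summed to 47.5 and 42.7 TPM in libraries 1 and 2. Most of that sum was Cd79b at 30.8 ± 3.05 TPM, close to the levels of Cxcr5 and Ccr6. Cd79a stood at 8.77 and 8.34 TPM and Cd22 at 3.55 and 4.36 TPM. Ms4a1 stood at 1.66 ± 0.721 TPM and Pax5 at 0.02 and 0.19 TPM. Cxcr5 exceeded Ms4a1 by 15.8-fold and 29.8-fold, but Cd79b by 1.04-fold and 1.19-fold. Ccr6 exceeded Ms4a1 by 15.8-fold and 24.7-fold. For monocytes and macrophages, which carry Ccr2, the 8 markers summed to 33.0 and 27.8 TPM. Lyz2, at 14.4 and 11.9 TPM, was near the level of Ccr2, and Ccr2 exceeded Csf1r 2.86-fold, then 7.83-fold in library 2. The 7 CD8 and cytotoxic markers, of cells that carry Cxcr3, summed to 114.1 and 107.8 TPM, most of it Nkg7 at 72.6 and 64.5 TPM. Cxcr3 exceeded Cd8a 47.7-fold and 20.6-fold and Cd8b1 3.34-fold and 2.52-fold, and stood at 1.11 and 0.91 times the level of Nkg7. For thymocytes, which carry Ccr9, the 6 listed genes summed to 169.9 and 153.7 TPM. Most of it was Cd1d1 at 124.5 and 114.0 TPM and Themis at 43.9 and 38.5 TPM, both above Ccr9. Which cells the RNA of Cd1d1 and Themis came from was not tested. Rag1, Rag2 and Ptcra had at most 2 reads in a library, and Ccr9 exceeded Dntt by 12.2-fold and 13.3-fold. The part of these cells in the level of any receptor was not tested.

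Beyond the 9 genes, the other listed receptors were low. Of 9 other signalling receptors 3 were detected, the highest being Cxcr6 at 8.20 ± 1.75 TPM. Cxcr6 encodes the receptor for CXCL16. Ccr10, a receptor of skin-homing cells, stood at 2.34 ± 0.354 TPM and Ccr3, the eotaxin receptor, at 1.34 ± 0.382 TPM. Ccr1l1 and Cxcr1 had no read, and a count of 0 allows up to 3 reads in each library. Of 5 atypical receptors, which bind chemokines without the usual signalling, only Ccrl2 was detected, at 8.65 ± 1.15 TPM. The means of Cxcr6 and Ccrl2 exceeded that of Cxcr4, the lowest of the 9 genes, and the library values of Cxcr6 overlapped those of Cxcr4.

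**Figure D2:**
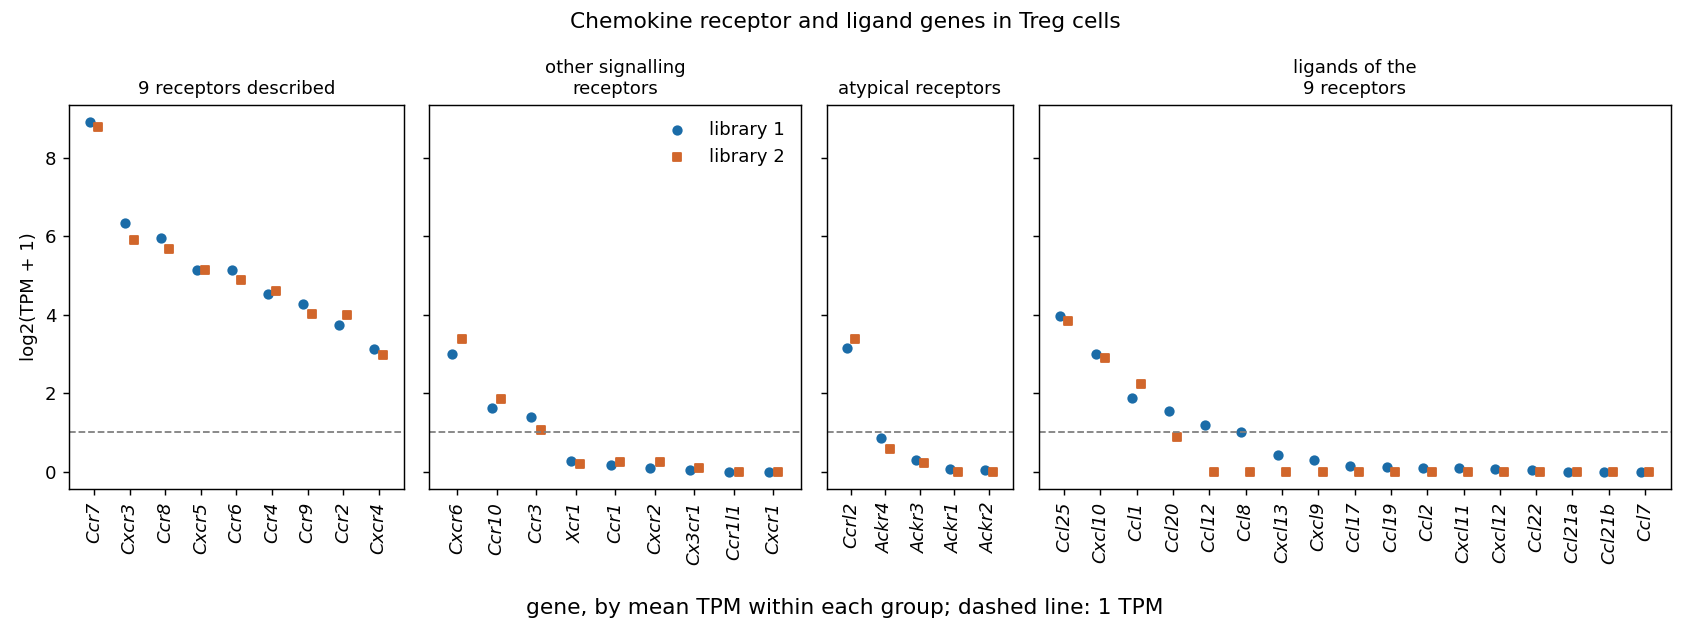
Levels as log2(TPM + 1) of the 9 receptor genes, of other signalling and atypical chemokine receptors, and of the matched ligand genes of the 9 receptors, with a point for each library and a dashed line at 1 TPM. Of the 9 receptors 9 lie above the line in both libraries, against 3 of 9, 1 of 5 and 3 of 17 genes in the other panels.

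Genes for the ligands of the 9 receptors were mostly not detected. Of 18 listed ligand genes 17 matched an annotated gene on a chromosome, and 3 were detected. Ccl25, the ligand of Ccr9, stood at 14.0 ± 0.898 TPM, Cxcl10, a ligand of Cxcr3, at 6.73 ± 0.354 TPM, and Ccl1, a ligand of Ccr8, at 3.21 ± 0.728 TPM. Ccl21a, Ccl21b and Ccl7 had 0 reads in both libraries. Ccl19, the other ligand gene of Ccr7, had 1 read and Cxcl12, the ligand of Cxcr4, 2 reads in library 1, and both had 0 in library 2. With library 1 alone 6 of the 17 reached 1 TPM, since Ccl8, Ccl12 and Ccl20 passed in that library only. Among 22 other ligand genes 5 were detected, led by Ccl5 at 61.4 ± 8.64 TPM. Over both ligand lists 14 of 39 genes had reads only in library 1, of at most 13 estimated counts each, and 0 had reads only in library 2. The share of all genes with reads in only 1 library was not computed, so these counts cannot be read as particular to ligands. Markers of myeloid cells went both ways. Of the 8 monocyte and macrophage markers 6 were higher in library 1, Csf1r at 4.34 against 1.91 TPM among them, and Ly6c2 was higher in library 2, at 9.80 against 8.40 TPM. The 6 neutrophil markers summed to 0.55 TPM in library 1 and 6.28 TPM in library 2, and S100a8 had 0 and 32 counts. The part of such cells in the ligand reads was not tested.

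Most of the signalling chain below the receptors was expressed. Of 14 G protein genes 11 were detected. Gnai2, the inhibitory alpha subunit through which chemokine receptors mainly act in lymphocytes, stood at 686 ± 26.9 TPM, and Gnai3 at 143 ± 13.6 TPM, while Gnai1 and Gnao1 had at most 2 reads in a library. Of 7 receptor kinases and arrestins, which switch receptors off, 6 were detected, led by Grk6 at 291 ± 21.6, Arrb2 at 247 ± 14.3 and Grk2 at 219 ± 29.2 TPM. Of 20 downstream migration effectors 19 were detected. Rac2, a GTPase of blood cells that drives actin assembly, reached 2161 ± 24.8 TPM, and Dock2, which activates it, 354 ± 28.7 TPM. Rassf5 and Stk4, which link chemokine signals to integrins, stood at 346 ± 17.5 and 168 ± 13.9 TPM. The median log2(TPM + 1) was 7.32 for the effectors, 5.45 for the G proteins and 4.06 for the kinases and arrestins, against 5.02 for the receptors.

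Chromosome 9 carries 5 of the 9 receptor genes and 14 of the 23 listed receptor genes. A stretch from Ccr9 to Ccr2 (GRCm38, 123678439 to 124113557) holds 7 receptor genes, and levels differed widely along it. Ccr9 was followed by Cxcr6 at 8.20 TPM, then by Xcr1 at 0.17, Ccr1 at 0.15 and Ccr1l1 at 0 TPM, then by Ccr3 at 1.34 and Ccr2 at 13.7 TPM (means of both libraries). Of the 7 receptors 4 were detected. Lztfl1, inside the Ccr9 gene model, and Fyco1, whose gene spans Cxcr6, encode no receptor and stood at 30.9 ± 3.62 and 34.0 ± 0.474 TPM. The low block of Xcr1, Ccr1 and Ccr1l1 thus sat between detected genes on both sides, of which Ccr3 was close to the 1 TPM minimum, at 1.61 and 1.07 TPM.

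**Figure D3:**
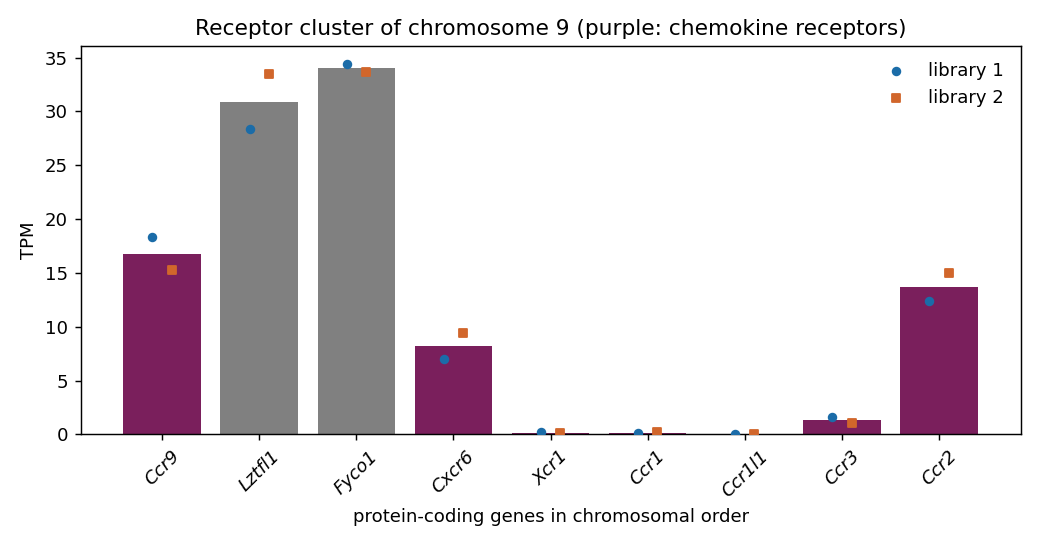
Mean TPM of the protein-coding genes from Ccr9 to Ccr2 in chromosomal order, as bars from 0, with a point for each library. Purple bars are chemokine receptors. Ccr9, Cxcr6 and Ccr2 are the highest receptors at 16.8, 8.20 and 13.7 TPM, and Xcr1, Ccr1 and Ccr1l1 are at or near 0.

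Sequence that a receptor shares with other genes bears on how its reads were assigned. Coding sequences of the 9 genes were 57.5% to 64.9% identical where aligned, over 36 pairs with a median of 60.5%, the highest being Ccr2 and Ccr8. Effective lengths in the tables equal the annotated length less 49 bases, as for reads of 50 bases, and so every window of 50 bases in the receptors' transcripts was looked up in the transcripts of other genes, on both strands. Of the 6758 different windows of Ccr2 transcripts, 129 (1.91%) occur in those of other genes. For Ccr4, 14 windows (0.47%) occur elsewhere. The windows of Ccr6, Ccr7, Ccr8, Cxcr3 and Cxcr4 were all absent from other genes. For Cxcr5 61 windows (1.86%) occur in Bcl9l, which overlaps its end on the opposite strand and stood at 22.5 ± 2.24 TPM. For Ccr9 20.1% of windows occur in other genes, of which AC165425.1 on the opposite strand holds 17.8%, at only 0.21 ± 0.113 TPM. Lztfl1 lies within the Ccr9 gene model on the opposite strand, at 30.9 TPM, but was not among the 3 genes that share a window with Ccr9. The labels do not say whether counting used strand, so reads of such overlaps cannot be assigned to a strand.

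The 9 genes have 32 annotated transcripts. Ccr7, Ccr8 and Cxcr3 have 1 each, so their levels do not depend on how reads are divided among transcripts of the gene. Of the 6 genes with several transcripts, the leading transcript was the same in both libraries for 2, Cxcr4 and Cxcr5. The same share over all genes with several transcripts was not computed, so this count cannot be read as particular to the receptors. Cxcr4-201 took 95.6 ± 6.18% of Cxcr4 TPM and Cxcr5-201 took 90.6 ± 4.13% of Cxcr5 TPM (SD, n = 2). For Ccr4, Ccr4-201 led in library 1 with 62.8% and Ccr4-202 in library 2 with 54.5%. These transcripts are 2805 and 1382 bases long, and the TPM of Ccr4 was higher in library 2, at 23.2 against 22.2, while its estimated counts were lower, at 943 against 1044. For Ccr2, Ccr2-201 took 43.6% in library 1 and 22.4% in library 2, and Ccr2-202 took 42.8% and 61.4%. For Ccr9, Ccr9-204 led in library 1 with 49.3% and Ccr9-201 in library 2 with 41.6%. Transcripts annotated as not protein-coding took little: a retained-intron transcript, Ccr9-206, had 6.04 ± 0.585% of Ccr9 TPM, and Ccr6-209 had 1.79 ± 0.461% of Ccr6 TPM.

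**Figure D4:**
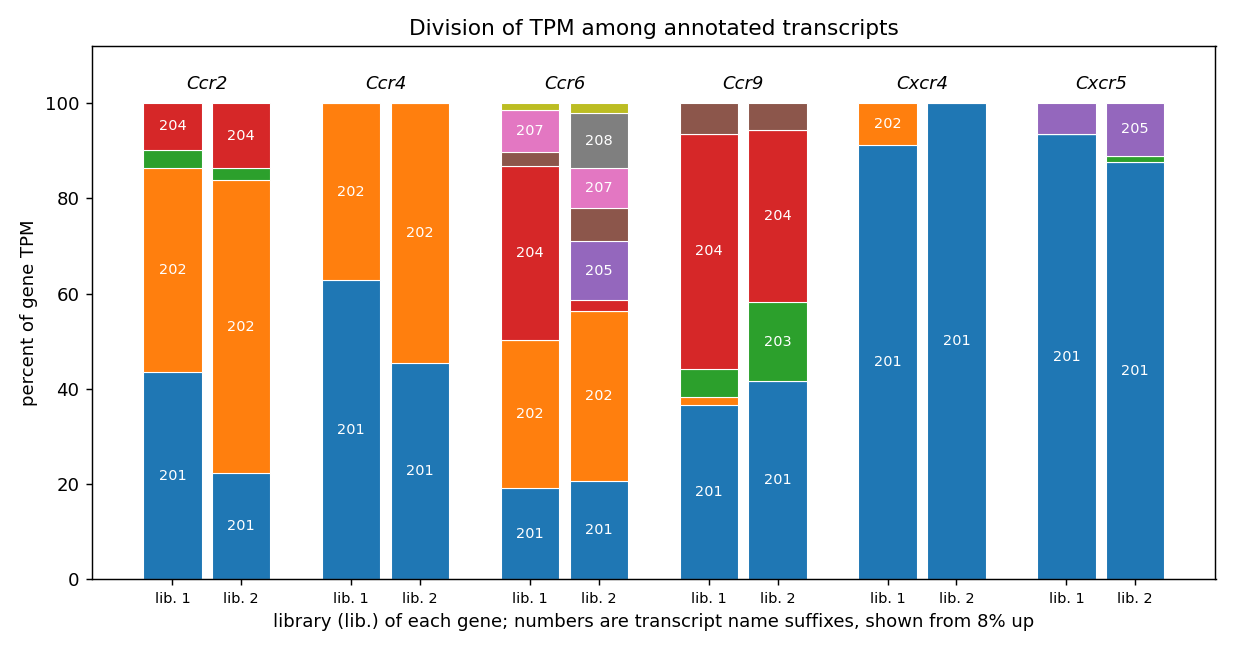
Percent of each gene's TPM given to its annotated transcripts, as stacked bars for both libraries of the 6 genes with several transcripts, with name suffixes written in. Ccr4-201 goes from 62.8% to 45.5% between the libraries and Ccr6-204 from 36.5% to 2.25%, whereas Cxcr5-201 takes 93.5% and 87.7%.

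The shares of Ccr6 differed most between libraries. Ccr6-204 stood at 12.5 TPM in library 1, and at 0.64 TPM in library 2. The deposited posterior intervals belong to a separate posterior mean TPM, and their level is not stated in the labels or headers. For Ccr6-204 they ran from 1.97 to 14.1 TPM in library 1 and up to 5.40 TPM in library 2, and so overlapped. Over the 6 genes with several transcripts, the intervals of 4 of 29 transcripts did not overlap between libraries: Ccr2-202, Ccr4-201, Ccr4-202 and Ccr9-203. Over the 66680 transcripts of all detected genes with several transcripts, this held for 7.09%. Grouped by annotated start, with starts within 300 bases joined, the first and second starts of Ccr6 took similar shares in both libraries and the others did not. Transcripts that begin at 8236043 to 8236212 took 39.8% and 44.1% of its TPM in libraries 1 and 2, and the transcript beginning at 8242526 took 19.2% and 20.7%. Those beginning at 8243811 to 8243814 took 39.5% and 21.5%, and those at 8245058 to 8245065 took 1.46% and 13.7%.

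For Ccr6, RefSeq places starts at 8236043 and 8242526, and the bases before both are shown because transcripts of both start groups received reads. In the first group only Ccr6-207 begins at 8236043, with 8.79% and 8.34% of Ccr6 TPM in libraries 1 and 2. Ccr6-202, with 31.0% and 35.7%, begins downstream at 8236212. The last sequence is that of Cxcr4, the lowest of the 9 genes. Each is 250 bases from RefSeq (GRCm38.p6), read 5′ to 3′ on the gene's strand and ending just before the RefSeq start, and none overlaps an annotated exon of its gene. Capitals mark matches to a TATA box (TATAAA) or a STAT motif (TTCNNNGAA). Also searched, on both strands, were an AP-1 motif (TGAGTCA), a forkhead motif (TGTTTAC), an ETS motif (CCGGAAG) and a KLF motif (CCACCC).
Ccr6 first start, chr17:8235793-8236042, plus strand: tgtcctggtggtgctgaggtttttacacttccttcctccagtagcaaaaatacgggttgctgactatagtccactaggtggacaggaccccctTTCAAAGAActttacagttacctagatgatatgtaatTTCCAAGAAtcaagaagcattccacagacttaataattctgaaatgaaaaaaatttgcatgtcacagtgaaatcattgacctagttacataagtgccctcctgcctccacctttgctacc
Ccr6 second start, chr17:8242276-8242525, plus strand: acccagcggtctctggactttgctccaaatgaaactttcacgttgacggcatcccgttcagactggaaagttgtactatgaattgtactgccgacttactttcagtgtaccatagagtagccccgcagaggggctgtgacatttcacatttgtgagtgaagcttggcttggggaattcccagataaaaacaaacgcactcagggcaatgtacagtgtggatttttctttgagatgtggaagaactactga
Cxcr4, chr1:128592300-128592549, minus strand: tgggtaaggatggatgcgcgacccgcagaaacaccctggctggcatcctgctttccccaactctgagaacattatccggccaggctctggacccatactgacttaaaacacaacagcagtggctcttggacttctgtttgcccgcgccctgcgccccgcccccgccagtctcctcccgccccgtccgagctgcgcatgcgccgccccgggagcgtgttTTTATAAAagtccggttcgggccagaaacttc
The window at the first Ccr6 start held 2 STAT motif matches, which 7.02% of 32851 promoter windows of this length hold at least once. The window at the second start held no match to any of the 6 motifs. The Cxcr4 window held a TATA box match on each strand, overlapping in 1 run of letters, and 12.4% of promoter windows hold one. Of windows of 250 bases 4.46% hold the AP-1, 3.17% the forkhead, 6.91% the ETS and 28.1% the KLF motif. RefSeq entries gave 8 windows for 7 of the 9 genes, with Ccr7 and Cxcr5 as the genes without an entry, and windows were shortened where an annotated exon began earlier. The AP-1 motif occurred in that of Ccr4 (232 bases, 4.21% of windows of that length) and the KLF motif in those of Ccr8 (231 bases, 26.1%) and Ccr9 (208 bases, 23.6%). The forkhead and ETS motifs occurred in 0 of the 8 windows. Of these, the Cxcr3 window had 128 bases and the Ccr2 window only 17. Of windows of 17 bases 0.15% hold the forkhead and 0.15% the ETS motif, so the Ccr2 window could hardly hold a match. A match is a description of these letters and not a binding site.

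How far the technical libraries differed was tested for each receptor. Cxcr3 and Ccr8 were lower in library 2 and Ccr2 was higher, by more than counting error. Cxcr3 had 2865 counts in library 1 and 2021 in library 2, a log2 ratio of library 2 over library 1 of -0.39 with a 95% counting interval of -0.47 to -0.31 (exact binomial test, Benjamini-Hochberg adjusted p = 5.8e-19). Ccr2 had 841 and 992 counts and a log2 ratio of 0.35, from 0.22 to 0.49 (adjusted p = 2.13e-06). Ccr8 had 1453 and 1153 counts and a log2 ratio of -0.22, from -0.33 to -0.11 (adjusted p = 0.000703). Ccr7 differed by a log2 ratio of only -0.04, from -0.07 to -0.01, which was called on its many reads (exact binomial test, adjusted p = 0.0265) but not when genes of any count were tested (adjusted p = 0.067). With the M4 counts, which are lower for each of the 9 genes, Cxcr3 was still called by the exact binomial test, at a log2 ratio of -0.25 (adjusted p = 0.000648), whereas Ccr2 at 0.32 (adjusted p = 0.0658) and Ccr8 at -0.13 (adjusted p = 0.181) were not. The other 5 genes, Ccr4, Ccr6, Ccr9, Cxcr4 and Cxcr5, did not pass the test, with log2 ratios between -0.14 and -0.01. For these, Cxcr4 had the widest interval, from -0.27 to 0.24.

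Of the 9 genes 4 were called, 3 higher in library 1 and 1 higher in library 2. Over all 18746 genes tested 36.5% were called, 19.2% higher in library 1 and 17.2% higher in library 2, so the receptors' count is near the background. Among the 6042 genes with 500 to 5000 summed counts, the band that holds 8 of the 9 genes, 42.2% were called and log2 ratios ran from -0.36 at the 5th percentile to 0.36 at the 95th. Cxcr3 lay below that band and Ccr2 at its upper edge. With edgeR's exact test at a common dispersion 0 of the 9 were called, against 2.98% of genes. In the exact binomial test 4 had an unadjusted p under 0.05. The dispersion was estimated from the same 2 libraries taken as 1 group, so their difference already counts as noise in it. For that reason edgeR's test cannot decide whether a receptor differs between the libraries. These tests compare 2 libraries of 1 sample and bear on no condition.

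**Figure D5:**
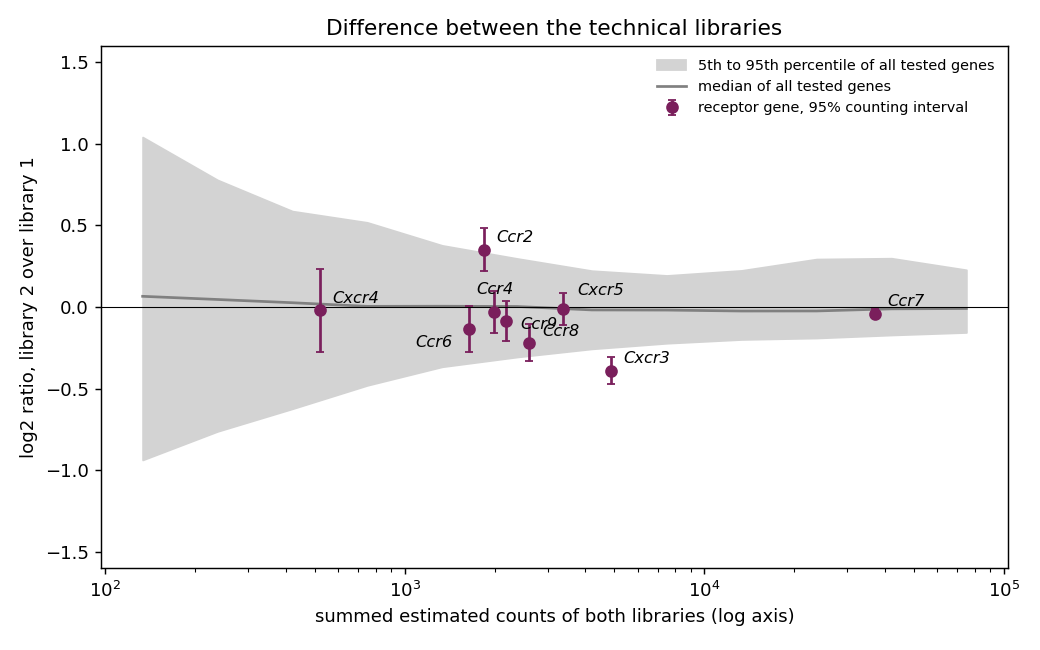
Log2 ratio of library 2 over library 1 against summed estimated counts (log axis) for the 9 receptor genes, with 95% counting intervals, over the 5th to 95th percentile (grey band) and median (grey line) of all tested genes in bins of counts. Cxcr3 at -0.39 lies below the band, Ccr2 at 0.35 at its upper edge, and the other 7 genes between -0.22 and -0.01.

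The older M4 gene counts, made from genome alignments of the same libraries, gave all 9 genes reads but level off for abundant genes. Among detected genes in library 1 with up to 1 M21 estimated count per base, the M4 count was a median of 50.8% of the M21 count. Among those with 1 to 3 it was 39.9%, and 40.0% in library 2. That range held Cxcr3 in both libraries and Ccr8 in library 1. Among those with 3 to 10 it was 21.3% in library 1, and above 10 it was 3.98%. Ccr7, with 9.90 and 8.89 M21 counts per base, had 2220 and 2221 M4 counts, 11.3% and 12.6% of its M21 counts, so its M4 values measure neither its level nor a difference between the libraries. For the other 8 genes, at 1.66 M21 counts per base or fewer, the M4 count was between 29.1% for Ccr2 and 75.7% for Ccr8 in library 2. Among these 8, per base of M21 gene length, Ccr8 ranked above Cxcr3, Ccr6 above Cxcr5 and Cxcr4 above Ccr2 by M4 counts. Cxcr4 and Ccr2 stood at 0.098 and 0.075 M4 counts per base in library 1 but at 0.089 and 0.088 in library 2, so library 2 hardly separated them. Of the detected ligand genes, Ccl25 had 96 and 60 M4 counts against 501 and 458 M21 estimated counts in libraries 1 and 2. Cxcl10 had 34 and 34 against 175 and 151, and Ccl1 had 19 and 22 against 27 and 38. The cause of the low M4 counts of Ccl25 and Cxcl10 was not tested.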

How the data were processed

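Poly(A)-selected RNA of 1 Treg cell sample was sequenced as 2 technical libraries. Per the file headers, the authors deposited estimated counts, TPM, FPKM, posterior means and posterior intervals (a signal with lower and upper bounds) for genes and transcripts on GENCODE M21, and per the deposited file lists these came from transcriptome alignments on mm10. The authors also deposited whole-number counts on GENCODE M4. Percent shares of transcripts are deposited too, per the file headers, and were recomputed here from TPM. The aligner, the quantifier and their versions: not given in the sources used here.

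Rows that name no annotated gene took 0.197% and 0.212% of estimated counts and were left out. Detection meant at least 1 TPM in each library. Estimated counts were rounded, scaled by TMM factors (edgeR 4.0.16) and compared between libraries by an exact two-sided binomial test (scipy 1.17.1) over genes whose counts summed to 10 or more, with Benjamini-Hochberg adjustment at 0.05. With 1 library a side no residual degrees of freedom remain for a quasi-likelihood fit. Intervals and floors (3 reads for a count of 0) cover counting error only, and PCR copies are not independent molecules. The log2 ratio used a prior count of 0.5 and list medians a pseudocount of 1. The tests were tested on simulated data, with counting error only for the binomial test and with a set dispersion for edgeR's exact test. The binomial simulation therefore does not cover spread beyond counting error. Windows of 50 bases and coding sequences came from GENCODE M21 transcripts, coding identity from global alignment (Biopython 1.88), and promoters from RefSeq. Annotation was GENCODE M21 on GRCm38, the build of the tables, with 1-based coordinates.

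The genes, the lists of receptors, ligands, signalling genes and markers, and the motifs were chosen with earlier results of these data known. Named genes are all 9 receptors, listed genes detected in both libraries, and genes that share sequence or position with a receptor. Exceptions are Fyco1, named for its place in the cluster, and undetected list genes, named after their values were seen. A few listed genes are not reported here. Alternatives changed the detection minimum, unit, estimator, pseudocount, normalization, count filter, error model, annotation and library.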

Additional observations from a re-analysis of the deposited data

How the results depend on the processing

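All 9 receptors were detected under each of the 6 other settings of minimum, unit, estimator and library. Of the other signalling receptors 5 were detected at 0.1 TPM and 1 at 5 TPM, and of the atypical receptors 3 at 0.1 TPM. Ligands of the 9 receptors detected were 3 with library 2 alone and 6 with library 1 alone. The members' median was 4.36 in FPKM, and 4.88 and 5.14 with a single library. The order was the same by FPKM, posterior mean TPM, protein-coding transcripts and either library. By M4 counts per length 3 of 9 genes kept their position and the Ccr7 share was 29.6%, but M4 counts level off for genes as abundant as Ccr7, so that share and the M4 ratio of Ccr7 are no check of its values. The M4 percentage of M21 counts was also lower at 1 to 3 M21 counts per base, the range of Cxcr3 in both libraries, than below that range. The cause of the other changes in order was not tested. With a single library the Ccr7 share by TPM ran from 63.9% to 65.8%. Receptors called between libraries were 0 of 9 in edgeR's exact test and 1 of 9 (Cxcr3) with M4 counts. All genes called were 558 of 18746 tested in edgeR's test and 1740 of 12186 with M4 counts, against 6834 of 18746 in the main test. The sets of genes tested thus differed between M4 and M21 counts. The common dispersion of edgeR's test came from the same 2 libraries, so its 0 is no check of the calls. With M4 counts the log2 ratio turned to 0.07 for Ccr4, 0.09 for Ccr7, 0.01 for Cxcr4 and 0.04 for Cxcr5, none of them called. Ccr7 was not called without a count filter (adjusted p = 0.067 in the exact binomial test). Over the settings of the exact binomial test, the adjusted p of Ccr7 ran from 0.016 to 0.067 on M21 counts and was 0.173 on M4 counts. With either library alone 4 of 6 leading transcripts were the same as in the mean. No paired analysis was possible because there is 1 group. Depth limits Cxcr4 most, on 272 and 248 counts.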
